A study of Mus musculus with 2 samples.

Results

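Levels of the carbonic anhydrase family were described in MEL cells, a mouse erythroleukemia line of red cell precursors, after 5 days in 2% dimethyl sulfoxide (DMSO), a solvent that starts hemoglobin synthesis in these cells. The 10 members (Car1, Car2, Car3, Car4, Car5a, Car5b, Car7, Car8, Car12 and Car13) were chosen by symbol from the 43346 genes with an Ensembl identifier. PolyA RNA was sequenced single-end in 2 libraries, which the labels give as biological replicates 1 and 2 of 1 group. Untreated cells were not analysed here, so the values say how high each gene stood under DMSO and not whether DMSO moved it. The labels give both libraries the same cell sample identifier, so the spread between them may be technical.

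Carbonic anhydrases are zinc enzymes that interconvert carbon dioxide and water with bicarbonate and a proton. In red cells, cytosolic enzymes feed bicarbonate to the anion exchanger band 3, which carries it into the plasma in return for chloride. Other members work in mitochondria, where bicarbonate is a substrate of carboxylases, or hold the catalytic domain outside the cell. Car1 and Car2 encode the classic red cell enzymes, of which the Car2 product is the faster.

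Replicate 1 held 26149725 estimated reads and replicate 2 held 14149299. For a gene at 0 reads the depth allows up to 0.115 CPM in replicate 1 and 0.212 CPM in replicate 2, with 3 counts as the limit and CPM as counts divided by library size. Such limits cover counting error alone. The level of a gene is its TPM (reads scaled to transcript length and to the library), which allows for length, but not for GC content, when genes are compared. All 8 erythroid markers reached 1 TPM in both libraries, against 45.5% of protein-coding genes, with a median level of 423 TPM. They ran from Hba-a1 (14178 ± 6145 TPM, SD, n = 2), Hbb-bs (10745 ± 3110 TPM) and Alas2 (1870 ± 1146 TPM) down to Epb42 (75.6 ± 39.1 TPM). The 5 hepatocyte markers had 0 reads.

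The members are related in sequence but share no stretch as long as the windows used here. Pairwise identity of the coding sequences ran between 43.9% for Car1 with Car4 and 64.6% for Car1 with Car13, with a median of 51.9% over 45 pairs. Exons 2, 3, 5 and 6 of the coding sequence had the same lengths in 7 of 10 members, at 198, 119, 63 and 156 bases, and Car4, Car8 and Car12 departed from this pattern. A stretch of 60 coding bases, the most alike among the members, is shown for the 4 members that lie together on chromosome 3, for the mitochondrial Car5b and for Car4, the least alike. Capitals mark bases that differ from Car2, and the mean identity over all member pairs was 67.5% here.
Car1: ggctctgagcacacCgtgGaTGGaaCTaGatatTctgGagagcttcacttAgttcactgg
Car2: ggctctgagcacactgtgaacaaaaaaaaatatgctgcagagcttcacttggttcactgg
Car3: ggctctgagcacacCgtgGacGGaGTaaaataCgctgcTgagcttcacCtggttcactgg
Car13: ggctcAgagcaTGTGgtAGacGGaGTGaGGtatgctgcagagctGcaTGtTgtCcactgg
Car5b: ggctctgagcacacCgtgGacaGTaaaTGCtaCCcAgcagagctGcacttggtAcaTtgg
Car4: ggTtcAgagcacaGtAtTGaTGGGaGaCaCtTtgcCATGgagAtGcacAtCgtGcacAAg
The Car2 stretch lies in GRCm38 at chr3:14895099-14895552 on the plus strand and that of Car1 at chr3:14770886-14776259 on the minus strand, each broken by an intron. Of the 60 bases, Car3 differs from Car2 at 9, Car1 at 11, Car5b at 13, Car13 at 19 and Car4 at 25. The longest run of bases that any pair of coding sequences shares is 30, between Car2 and Car13, and no window of 45 bases was common to 2 members. Effective transcript lengths in the files are 44 bases below full lengths, which is why windows of 45 were used. Car2 shared no such window with any other gene, whereas 187 of 1246 windows of Car1 (15.0%) also occur in the neighbouring pseudogene Gm5843. That pseudogene was listed at 0.42 TPM in replicate 1 and 1.21 TPM in replicate 2, from 4.37 and 7.18 estimated reads. Matches to the opposite strand of any gene, its own included, were counted as well. With these, Car5b shared 283 of 6299 windows (4.49%) and Car5a 289 of 1294 (22.3%), each with many genes. For Car3, Car4, Car12 and Car13 no window was shared with another gene.

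A pair of cytosolic enzymes made up nearly all carbonic anhydrase RNA. Summed over the 10 members, the level was 1245 TPM in replicate 1 and 1394 TPM in replicate 2 (mean 1320 ± 106 TPM, SD, n = 2). Car1 and Car2 together held 99.5% of that sum in replicate 1 and 99.8% in replicate 2. In all, 3 of 10 members reached 1 TPM in both libraries, the limit used for detection, against 25.4% of all genes and 45.5% of protein-coding genes. The members' share, 30%, lies between these background shares, and nothing about the family is read from it.

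Car1 (ENSMUSG00000027556.11, chr3:14766216-14808368, minus strand), which encodes an abundant red cell protein, was listed at 877 TPM in replicate 1 and 742 TPM in replicate 2. These values came from 24276 and 11538 estimated reads. Its mean of 809 ± 95.3 TPM (SD, n = 2) placed it at rank 73 of 21474 protein-coding genes. Taken alone, replicate 1 placed it at rank 77 and replicate 2 at rank 95. Hba-a1, an alpha globin gene, was 11.2 times as high as Car1 in replicate 1 and 25.0 times in replicate 2.

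Car2 (ENSMUSG00000027562.8, chr3:14886273-14900770, plus strand), whose product is the fast cytosolic enzyme of red cells and many other cells, was listed at 362 TPM in replicate 1 and 649 TPM in replicate 2. The reads numbered 15069 and 11180. Its mean of 506 ± 203 TPM (SD, n = 2) placed it at rank 135, with rank 185 in replicate 1 and 105 in replicate 2. The Car1 level was above the Car2 level in both libraries, and their ranges did not overlap, but the ratio of Car1 to Car2 was 2.42 in replicate 1 and 1.14 in replicate 2. Car1 accordingly held 70.4% of the family's TPM in replicate 1 and 53.2% in replicate 2. GC content was 44.5% for Car1 and 51.7% for Car2, and its part in the change of their ratio was not tested.

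The other cytosolic members were near the lower limit of measurement. Car3, a slow enzyme abundant in muscle, fat and liver, was listed at 0.93 TPM (21 reads) in replicate 1 and 0.05 TPM (1 read) in replicate 2. Its coding transcript Car3-201 received 0 reads in both libraries. The reads lay on the retained-intron models Car3-202, with 9 and 1, and Car3-203, with 12 and 0 in replicates 1 and 2. Car13, a widely expressed cytosolic enzyme, was listed at 0.66 TPM (36 reads) and 0.23 TPM (7 reads). Its coding transcript is the only model listed for it, so its reads could lie on no other. Car7, best known from brain, had 6 reads in replicate 1 and 2 in replicate 2, or 0.2 and 0.27 TPM. Car8, which encodes a related protein that lacks enzyme activity, had 0 reads in both.

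Of the mitochondrial pair, Car5b was detected and Car5a was not. Car5b (ENSMUSG00000031373.4, chrX:163976822-164027997, minus strand) was listed at 4.23 TPM in replicate 1 and 2.56 TPM in replicate 2, from 347 and 119 estimated reads. That level of 3.40 ± 1.18 TPM (SD, n = 2) corresponds to rank 8663, and Car1 was 207 times as high in replicate 1 and 290 times in replicate 2. Car5a, the liver form of the mitochondrial enzyme, had 0 reads in replicate 1 and 1 read in replicate 2.

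Neither member with a catalytic domain at the cell surface was detected. Car12, a transmembrane enzyme, was listed at 0.28 TPM (15 reads) in replicate 1 and 0.23 TPM (7 reads) in replicate 2. Most of its reads in replicate 1, 12.85 of them, were placed on the coding Car12-201 and 2.15 on the retained-intron model Car12-203, while in replicate 2 the reads were placed on Car12-202 (3.45) and the retained-intron model Car12-205 (3.55). These placements are uncertain. In replicate 1 the posterior SD for Car12-201 was 3.98 reads, and posterior means gave it 19.05% of Car12 TPM. Car4, which is anchored to the membrane by a lipid, had 0 reads in both libraries. Along the order of mean levels, the libraries of Car1, Car2 and Car5b each lay above those of the next member without overlap. Those of Car7 also lay above those of Car5a. With 6 and 2 reads against 0 and 1, counting error does not separate that pair. Car3, Car13, Car12 and Car7 overlapped in sequence, as did Car5a, Car4 and Car8 at the bottom. By overlap alone, 5 of 9 neighbouring pairs could not be ranked.

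**Figure D1:**
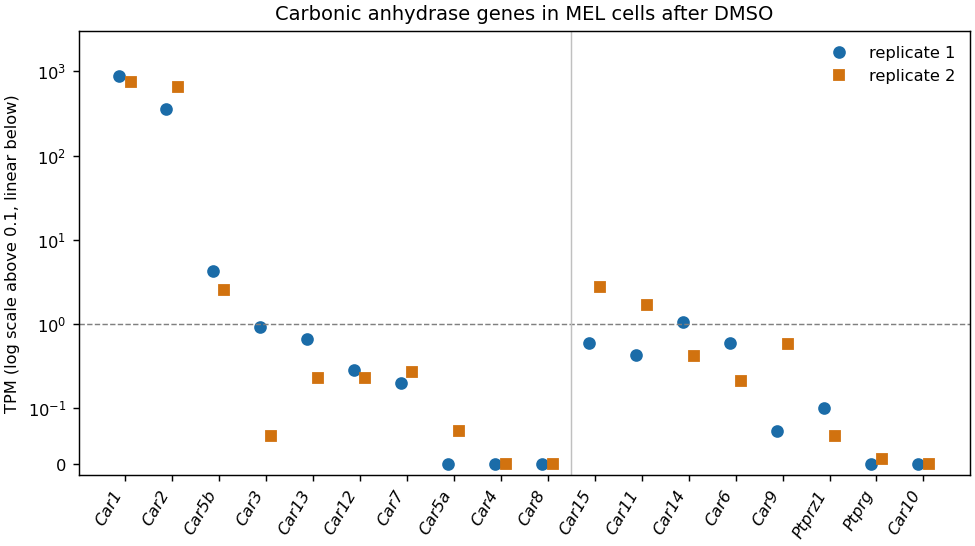
TPM of the 10 members (left of the vertical line) and 8 other carbonic anhydrase genes (right), ordered by mean level within each set, with a circle for replicate 1 and a square for replicate 2. The vertical axis is logarithmic above 0.1 TPM and linear below, and the dashed line marks 1 TPM; Car1 and Car2 stand at 362 TPM or above and every other gene at 4.23 TPM or below.

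In TPM, most of the difference in Car2 between the libraries lay on a short transcript model. Car2-201, the full coding transcript of 1788 bases, was listed at 352 TPM in replicate 1 and 386 TPM in replicate 2 (369 ± 24.1 TPM, SD, n = 2). Car2-202 is a coding model of 587 bases with another first exon and an incomplete 345-base coding sequence that begins at the same base as that of Car2-201. It received 0 reads in replicate 1. In replicate 2 it received 1938 reads, with a posterior SD of 73.2 reads as deposited, or 261 TPM. Its share of Car2 TPM was thus 0% in replicate 1 and 40.2% in replicate 2, while Car2-201 held 97.1% and 59.4%. Car2-203, a retained-intron model, was listed at 10.57 and 2.7 TPM in replicates 1 and 2.

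TPM of a short transcript rises faster per read than that of a long one, so the share moved the gene's level. The mean Car2 length weighted by transcript was 1762 bases in replicate 1 and 1302 in replicate 2. On the TPM scale Car2 was 1.79-fold higher in replicate 2 than in replicate 1. Without length, as CPM, it was 1.37-fold higher, and with all reads placed at the length of Car2-201 it was 1.31-fold higher. Set against Car2-201 alone, the ratio of Car1 was 2.49 in replicate 1 and 1.92 in replicate 2. Of 543 windows of 45 bases in Car2-202, 447 also occur in Car2-201 and 96 do not. Its GC content is 59.3%, against 49.1% for Car2-201, and the part of GC content in the new share was not tested.

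Car1 RNA came from models with starts 29906 bases apart. Car1-203 (1194 bases) begins at the upstream start and Car1-201 (1180 bases) at the downstream start, and both hold the same 783 coding bases. In human, CA1 is known to have a distal promoter used in erythroid cells and a proximal promoter used in colon. Car1-203 was listed at 565 TPM in replicate 1 and 338 TPM in replicate 2, and Car1-201 at 310 and 398 TPM. The short model Car1-202 (367 bases) was listed at 2.22 and 6.25 TPM. Together with it, models with the upstream start held 64.7% of Car1 TPM in replicate 1 and 46.3% in replicate 2. The order of the starts therefore differed between the libraries. The division rests on few sequence differences, since 1085 windows of 45 bases are common to Car1-203 and Car1-201, 65 occur in Car1-203 alone of that pair and 51 in Car1-201 alone. The deposited posterior SD for Car1-203 was 786 reads in replicate 1 and 427 reads in replicate 2. Its credibility bounds in replicate 1, 476 and 573 TPM, lay above those of Car1-201, 259 and 357 TPM, whereas in replicate 2 the bounds of 258 and 353 TPM overlapped those of 323 and 418 TPM. For Car5b the only coding model listed is Car5b-201, beside a retained-intron model, so a division between coding models could not appear. Car5b-201 held 98.7% of the gene's TPM in replicate 1 and 100% in replicate 2.

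**Figure D2:**
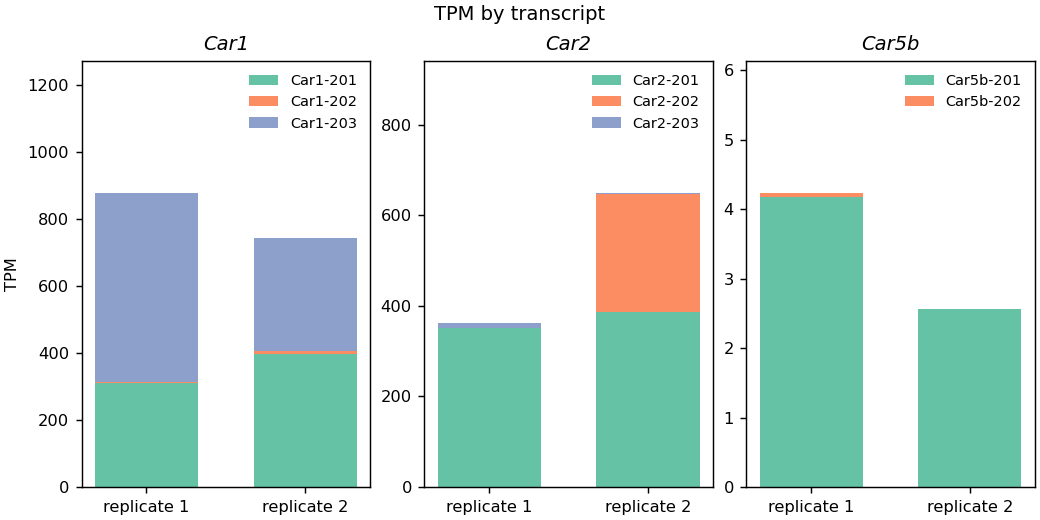
Stacked bars of TPM by transcript for Car1, Car2 and Car5b in replicate 1 (left bar) and replicate 2 (right bar), each panel with its own axis that starts at 0. Car2-201 is of similar height in both libraries (352 and 386 TPM) and Car2-202 adds 261 TPM in replicate 2 and nothing in replicate 1, while Car1-203 is the taller Car1 segment in replicate 1 and Car1-201 in replicate 2.

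Both high members lie in a group of 4 carbonic anhydrase genes that spans 259 kb of chromosome 3, in the order Car13, Car1, Car3 and Car2. Car1 and Car2 are 77.9 kb apart. Car3 lies between them, 55.1 kb from Car1 and 13.75 kb from Car2, and did not reach 1 TPM in either library. Levels in the group thus alternated along the chromosome, with 0.445 ± 0.304 TPM for Car13, 809 ± 95.3 TPM for Car1, 0.49 ± 0.622 TPM for Car3 and 506 ± 203 TPM for Car2 (SD, n = 2 each). The next protein-coding gene beyond Car2, Gm9733, was listed at 0 TPM in both libraries at a distance of 396 kb. On the other side of the group, 30.4 kb from Car13, lies 1810022K09Rik. That gene was listed at 803 TPM in replicate 1 and 180 TPM in replicate 2. Car5b lies on the X chromosome between Zrsr2, a splicing factor gene at 155 TPM in replicate 1 and 36.9 TPM in replicate 2, and Siah1b, a ubiquitin ligase gene at 6.38 and 4.79 TPM.

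**Figure D3:**
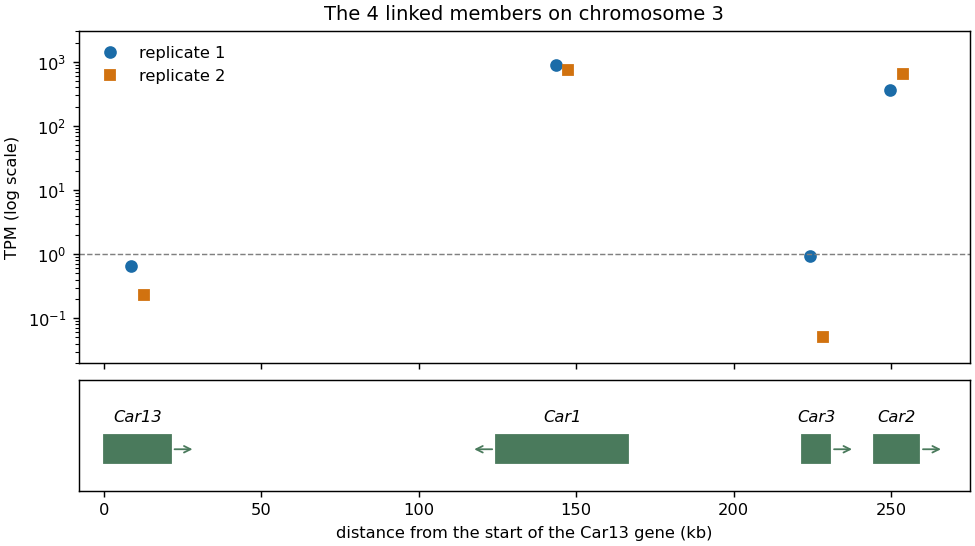
The upper panel gives TPM on a logarithmic axis for the 4 linked members in replicate 1 (circles) and replicate 2 (squares), and the lower panel shows the genes to scale by distance in kb from the start of Car13, with arrows for the direction of transcription. Car1 and Car2 lie at 362 TPM or above on either side of Car3, at 0.93 TPM or below.

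The difference between the libraries followed base composition across genes. Of the detected members, Car1 lay farthest from that trend, at 0.27 log2 units. With the trend removed, 1401 genes still passed 2-fold, and whether Car1 departs from the scatter was not tested. The log2 ratio of replicate 2 over replicate 1, from counts scaled by TMM, was -0.47 for Car1, 0.18 for Car2 and -0.93 for Car5b. None of the 3 passed 2-fold, which 12.4% of 12394 genes did towards replicate 2 and 14.5% towards replicate 1. These ratios set 1 library against 1 and have no replicate check. Across 8971 protein-coding genes the ratio and the GC content of the transcripts had a Spearman rho of 0.78, given as a description, since all points share the same pair of libraries. GC content was 44.5% for Car1, 51.7% for Car2 and 43.6% for Car5b. With the GC trend removed, the log2 ratio was 0.27 for Car1, 0.03 for Car2 and -0.11 for Car5b, so the sign for Car1 turned. Depth differed between the libraries as well, and its part was not tested.

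**Figure D4:**
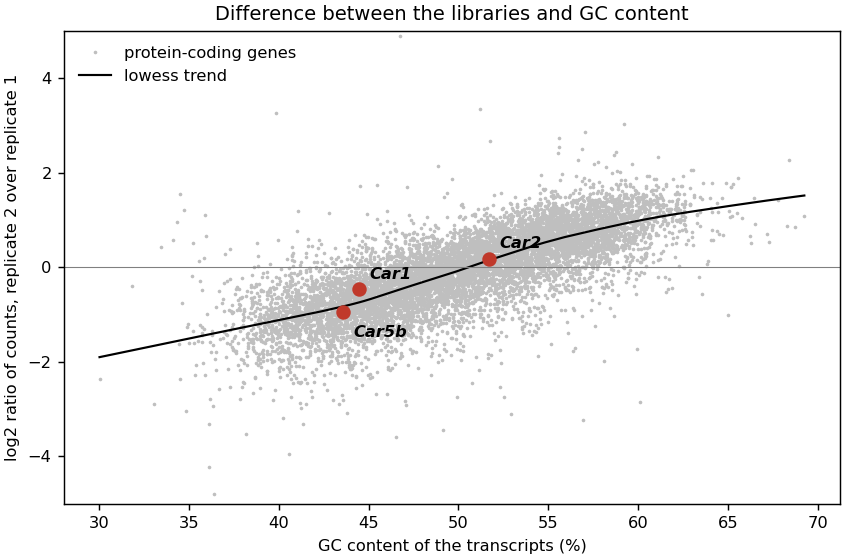
Log2 ratio of scaled counts, replicate 2 over replicate 1, against GC content of the transcripts in percent for protein-coding genes (grey) with the lowess trend (line) and the 3 detected members (red). Distances from the line are 0.03 for Car2, -0.11 for Car5b and 0.27 for Car1.

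Levels were low for 8 further carbonic anhydrase genes that are not members. None reached 1 TPM in both libraries, and 3 reached it in a single library: Car15, a membrane-anchored enzyme, at 0.6 and 2.74 TPM in replicates 1 and 2, Car11, an inactive relative, at 0.43 and 1.7 TPM, and Car14, a transmembrane enzyme, at 1.06 and 0.42 TPM. Car9, a transmembrane enzyme induced by low oxygen, was listed at 0.06 TPM (2.41 reads) in replicate 1 and 0.57 TPM (15.31 reads) in replicate 2. Car6, the secreted enzyme of saliva, was at 0.59 and 0.21 TPM. The receptor phosphatases Ptprz1 and Ptprg, which carry a carbonic anhydrase-like domain, were at 0.1 and 0.05 TPM and at 0 and 0.01 TPM. Car10, another inactive relative, had 0 reads in both.

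Genes of ion, gas and water transport, bicarbonate use and hypoxia were described from lists. These are to be read against the median of all protein-coding genes, 0.6 TPM, and the 45.5% of them detected. Of the bicarbonate and anion exchangers, 7 of 18 (38.9%) were detected and the list's median was 0.353 TPM, with 0.145 TPM in replicate 1 and 0.56 TPM in replicate 2 taken alone. Slc4a1, which encodes band 3, led them at 148 TPM in replicate 1 and 178 TPM in replicate 2, or 163 ± 21.3 TPM (SD, n = 2), followed by the related exchanger gene Slc4a2 (44.9 ± 22.8 TPM) and the sulfate carrier gene Slc26a2 (7.01 ± 0.778 TPM). The libraries differed more for Slc4a1 on scaled counts, with 2247 reads in replicate 1, 3021 in replicate 2 and a log2 ratio of 1.03. The part of transcript length in this was not tested. Slc4a9 and Slc26a7 were at 0 reads. Summed Car1 and Car2 RNA was listed at 1239 and 1391 TPM in replicates 1 and 2, above the exchanger in both. Among gas and water channels, 4 of 7 (57.1%) were detected (median 14.5 TPM), with Rhag, the Rh-associated glycoprotein of the red cell membrane, at 126 ± 41.4 TPM, the water channel gene Aqp1 at 87.8 ± 34.5 TPM and the blood group gene Rhd at 57.8 ± 35.1 TPM. Rhcg and Rhbg, the Rh relatives of kidney and other epithelia, were at 0 reads.

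Proton and lactate carriers were detected in 9 of 15 cases, or 60% (median 5.45 TPM). Bsg, the chaperone of monocarboxylate carriers, stood at 241 ± 131 TPM, the lactate carrier gene Slc16a3 at 101 ± 68.0 TPM and Chp1, a cofactor of sodium-proton exchangers, at 72.1 ± 19.1 TPM, while 5 members had 0 reads. Bicarbonate-using enzymes were detected in 8 of 9 cases, or 88.9% (median 7.57 TPM). The highest was Cad, the multienzyme of pyrimidine synthesis, at 9.27 TPM in replicate 1 and 44.9 TPM in replicate 2, a range that includes the level of the next, the propionyl-CoA carboxylase gene Pcca (26.0 ± 4.57 TPM). Acaca, the carboxylase of fatty acid synthesis, stood at 16.4 ± 2.40 TPM. The lowest was Cps1, the urea cycle enzyme, at 0.08 and 0 TPM. Of the hypoxia genes, 12 of 14 (85.7%) were detected (median 27.6 TPM), with Vegfa, a vessel growth factor gene, at 103 ± 17.5 TPM, the mitophagy receptor gene Bnip3 at 96.7 ± 6.70 TPM and Arnt, the partner of hypoxia-inducible factors, at 94.0 ± 34.4 TPM. Bnip3 had 3575 reads in replicate 1 and 1349 in replicate 2, with a log2 ratio of -0.80 on scaled counts. Its TPM was nevertheless higher in replicate 2. Car9 and Car12, the carbonic anhydrase genes best known as hypoxia targets, were below 1 TPM in the same libraries, and Adm, another such target, had 0 reads.

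**Figure D5:**
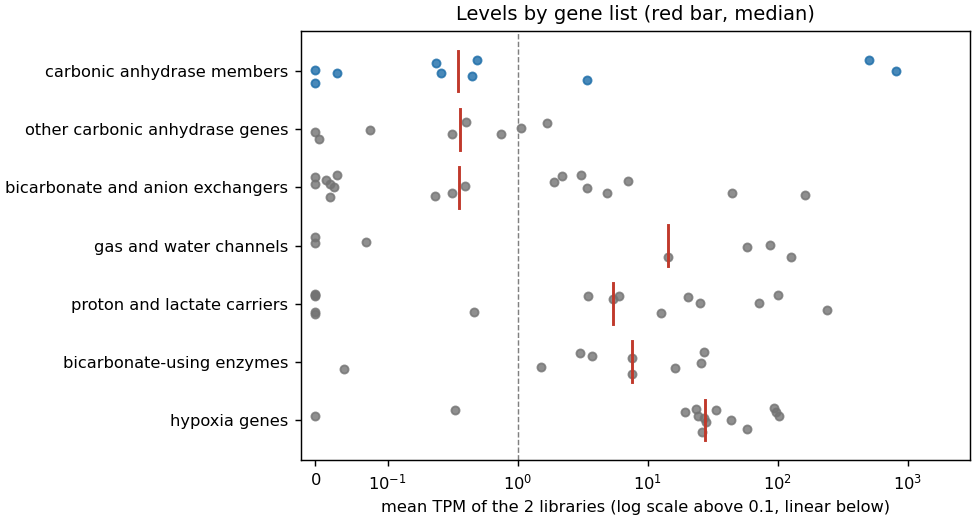
Mean TPM of the 2 libraries for each gene of 7 lists, with a point per gene (vertical scatter within a row carries no meaning), a red bar for the list's median and a dashed line at 1 TPM; the horizontal axis is logarithmic above 0.1 TPM and linear below. The carbonic anhydrase members (blue) have a median of 0.35 TPM and 2 points, Car1 and Car2, beyond the highest gene of each other list.

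Markers of muscle, fat, endothelium, osteoclasts and macrophages were mostly low. Megakaryocyte markers stood higher, with a list median of 6.54 TPM against 0.6 TPM for all protein-coding genes. The counts detected are to be read against the 45.5% of protein-coding genes detected. Of the muscle list, 1 of 6 was detected (Mylpf, 4.73 and 6.31 TPM in replicates 1 and 2), followed by Acta1 (0.15 and 0.42 TPM) and Mb (0.24 and 0 TPM), and Tnnt3 had 0 reads. Adipoq, Cidec, Plin1 and Lep of the fat list had 0 reads and Retn was listed at 2.77 ± 0.700 TPM. Of the osteoclast and macrophage list, which bears on Car2 because osteoclasts acidify bone with it, 2 of 6 were detected. Acp5 was at 10.9 and 32.7 TPM and Cd68 at 3.17 and 5.66 TPM in replicates 1 and 2. Ctsk (0.11 and 0.2 TPM), Csf1r (0.04 and 0.03 TPM) and Adgre1 (0.01 and 0 TPM) were near 0, and Mmp9 had 0 reads. Summed, that list was at 14.2 TPM in replicate 1 and 38.6 TPM in replicate 2, most of it Acp5. Sums of the erythroid list (20571 and 35366 TPM) and the megakaryocyte list (95 and 189 TPM) were also higher in replicate 2, and the part of other cells in the Car2 level was not tested. The megakaryocyte list was detected in 4 of 6 cases, led by Itga2b at 112 ± 52.5 TPM, Pf4 at 13.7 and 20.1 TPM in replicates 1 and 2 and Gp9 at 7.62 ± 6.59 TPM, with Treml1 and Gp6 at 0 reads. The endothelial list was detected in 1 of 5 cases (Pecam1, 5.83 ± 0.332 TPM), with Tek at 0.14 and 0 TPM, Kdr at 0.01 and 0.04 TPM, and Cdh5 and Cldn5 at 0 reads. Fewer cells of a type and less RNA per cell cannot be told apart in such bulk samples.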

How the data were processed

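The 2 libraries (2% DMSO, 5 days) form 1 group of 2 replicates, per the labels. The assembly was mm10 per the labels, and the annotation GENCODE M4 per the lists of files. Program and aligner: not given in the sources used here. Expected counts (estimated reads, shared among transcripts) were deposited unscaled, and TPM and FPKM length-scaled, per the file headers. FPKM was not used. The authors deposited the percent of each gene's TPM held by each transcript, and posterior mean TPM, posterior SDs and credibility bounds, treated here as signal values. The level of these bounds was not stated in those sources.

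Symbols and coordinates came from GENCODE M21 (GRCm38, the same assembly), matched by Ensembl identifier for 42462 of 43346 genes. The other 26345 rows (numeric identifiers and spike-ins) named no gene and stayed out of count methods and lists. In replicate 1 they took 0.0296% of the reads and 0.806% of the TPM, and in replicate 2 0.0465% and 1.49%. Replicate 1 had a depth of 26149725 estimated reads, and replicate 2 of 14149299.

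A gene was called detected at 1 TPM or more in each library. Expected counts were rounded for ratios between the replicates, which used genes with at least 10 reads in both, TMM factors (edgeR 4.0.16) and a prior count of 1. DESeq2 1.42.0 gave alternative size factors in R 4.3.3. With 1 group there was no test of conditions. Each gene's GC content averaged its transcripts, weighted by TPM, and the lowess trend (span 0.3, 3 iterations) used protein-coding genes averaging 100 counts or more. Coding sequences of GENCODE M21 were aligned with MAFFT 7.526. Other steps used Python 3.11.15, pandas 2.3.3, numpy 2.4.6, scipy 1.17.1, statsmodels 0.14.6 and matplotlib 3.10.9. The ratio step was tested on simulated data without a GC trend, so that test does not cover the trend seen here. The members and lists were chosen with earlier results of these data known. Named genes were all members, other carbonic anhydrase genes and the 3 highest and the lowest of each other list, with those at 0 reads by count. Transcripts were named with at least 1 TPM or 10% of their gene in members with at least 10 reads in a library. Neighbours were named for detected members and for both ends of their chromosome 3 group.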

Additional observations from a re-analysis of the deposited data

How the results depend on the processing

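The number of members detected stayed at 3 with limits of 0.5 TPM, 10 reads or posterior mean TPM and with either library alone, and was 2 at 5 TPM. The summed level ran between 1245 TPM without replicate 2 and 1394 TPM without replicate 1, and was 1236 TPM from posterior means. The ratio of Car1 to Car2 by TPM ran between 1.14 without replicate 1 and 2.42 without replicate 2. From reads without length scaling it was 1.61 in replicate 1 and 1.03 in replicate 2 (mean 1.32). With all reads at the length of the leading coding transcript it was 2.44 and 1.57 (mean 2.00). That alternative was chosen after seeing the data. Posterior means put Car4, with 0 reads, at 0.585 TPM. Genes past 2-fold between the replicates numbered 3340, and 1401 with the GC trend removed, which takes out the part of each ratio that follows GC content. For Car1 the log2 ratio was -0.24 as a ratio of TPM, -0.19 by total counts and 0.27 with the GC trend removed. None of the 3 ratios between the replicates passed 2-fold in these 7 alternatives. In the 6 pathway lists, 40 of 71 genes were detected, against 45.5% of protein-coding genes. Depth limits the members under 40 reads, whose transcript shares rest on single reads. No paired analysis was possible because there is only 1 group.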
